A study of Rattus norvegicus with 24 samples.

Results

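Pdgfa, Gcgr and Gnrhr encode a growth factor and a pair of peptide hormone receptors, and they were followed here in rat kidney through a change of dietary salt in 2 strains. They are 3 of the 1422 named genes with a value in the series, found by their gene symbols in the annotation of the array. Each symbol stands on 2 probe identifiers, and of these 6 probes 3 had a value, 1 per gene, while the second identifier of each gene had a value on 0 arrays. They were chosen by their measured log ratios: Pdgfa and Gnrhr had passed the test against 0 in SS-13BN/Mcw rats at 3 days, Gcgr had one of the smallest p-values in SS rats at 3 days, and the strain and time differences were known as well. Their levels are therefore given as a description and carry no test.

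Total kidney RNA was measured on 24 cDNA arrays, each with a Cy5 and a Cy3 channel. The groups were SS rats at 3 days, SS rats overnight, SS-13BN/Mcw rats at 3 days and SS-13BN/Mcw rats overnight after the change, with 3 rat pairs in each. SS is the Dahl salt-sensitive rat. SS-13BN/Mcw is the same rat with chromosome 13 replaced by that of the Brown Norway rat, which makes it a consomic strain. Each pair set an LS rat against an HS rat of the same strain (low and high salt), and each pair was hybridised on 2 arrays with the dyes exchanged. The titles give no age, sex, salt content or kidney region, and they do not say which rat of a pair had which diet. Rats 1 to 3 of a strain appear in the pairs of both times, so the 3-day and overnight groups of a strain share these rats.

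Values are deposited log ratios after the median of each array was set to 0. The sources used here give neither the log base nor the numerator. No fold is given for that reason, and a gene is said to lie on the positive or negative side, with no direction for salt. Both arrays of a pair were averaged into 1 pair value without turning either sign. Once the part shared by arrays of 1 dye orientation was taken out, both arrays of a pair correlated positively over probes in 12 of 12 pairs (r from 0.169 to 0.825). As they stand, the arrays of a pair correlated with r from -0.0595 to 0.749, and r was below 0 in 4 of 12 pairs. If the ratio is instead Cy5 over Cy3, 1 array of each pair has to be turned, and values under that reading are given beside the results as turned by dye. Arrays held a value for 877 to 1412 probes. Of 1766 probes with a value 701 had one on all 24 arrays, the 3 genes among them. The number of arrays limits the precision. Slide numbers in the titles ran from 36 to 41 in SS at 3 days, 18 to 23 in SS overnight, 28 to 35 in SS-13BN/Mcw at 3 days and 24 to 43 in SS-13BN/Mcw overnight. The numbers of both SS-13BN/Mcw groups alternated, while each SS group formed a run of its own. Slide order therefore cannot be told apart from strain, nor in SS from time.

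Pdgfa encodes the A chain of platelet-derived growth factor, a secreted mitogen whose dimers bind the receptor tyrosine kinase encoded by Pdgfra on mesenchymal cells. In the kidney the ligand is made largely by epithelial and vascular cells and the receptor sits on interstitial cells. Gcgr encodes the glucagon receptor, which couples to the stimulatory G protein and raises cyclic AMP. It is best known from liver, and in rat kidney glucagon acts on the thick ascending limb and the distal nephron. Gnrhr encodes the receptor for gonadotropin-releasing hormone, which couples to the Gq class of G proteins in gonadotropes of the pituitary, and kidney is not its classical site. The 3 names rest on the annotation of the array, and the clone sequences were not used here.

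The stretch of 250 bases before the start of each gene is shown because the values of all 3 genes were higher in SS-13BN/Mcw at 3 days than in the other groups with arrays not turned, so that their start regions can be read side by side. The sequences are those of RefSeq in the rat build GRCr8, plus strand, 5′ to 3′. Capitals mark matches on either strand to the GC box GGGCGG, the cyclic AMP response element half-site TGACG, the AP-1 site TGANTCA, the nuclear receptor half-site AGGTCA and the TATA box TATAAA. Bases shared by overlapping matches numbered 0 in each region. The first region lies at chr12:20759116-20759365, the Gcgr regions at chr10:106306553-106306802 and chr10:106307346-106307595, since RefSeq gives Gcgr 2 starts, and the last at chr14:22211416-22211665.
Pdgfa: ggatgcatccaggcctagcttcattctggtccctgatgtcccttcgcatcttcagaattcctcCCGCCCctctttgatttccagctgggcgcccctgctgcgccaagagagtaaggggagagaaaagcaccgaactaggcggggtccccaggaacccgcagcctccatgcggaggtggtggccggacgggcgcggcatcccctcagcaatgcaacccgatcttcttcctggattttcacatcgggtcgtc
Gcgr start 1: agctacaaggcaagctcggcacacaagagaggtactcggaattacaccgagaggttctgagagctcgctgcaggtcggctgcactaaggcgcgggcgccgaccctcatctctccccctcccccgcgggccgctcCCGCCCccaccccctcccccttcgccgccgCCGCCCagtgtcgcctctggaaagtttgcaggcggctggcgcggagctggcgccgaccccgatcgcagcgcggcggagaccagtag
Gcgr start 2: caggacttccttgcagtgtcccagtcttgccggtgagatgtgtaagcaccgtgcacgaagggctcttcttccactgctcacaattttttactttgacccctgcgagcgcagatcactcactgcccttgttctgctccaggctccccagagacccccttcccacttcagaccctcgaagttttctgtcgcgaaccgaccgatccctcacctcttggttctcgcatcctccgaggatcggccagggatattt
Gnrhr: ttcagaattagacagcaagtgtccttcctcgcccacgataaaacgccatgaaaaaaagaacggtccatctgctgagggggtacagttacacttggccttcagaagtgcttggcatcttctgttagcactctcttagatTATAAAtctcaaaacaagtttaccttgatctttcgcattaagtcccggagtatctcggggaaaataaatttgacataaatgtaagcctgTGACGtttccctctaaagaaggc

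The regions of Pdgfa and of the first start of Gcgr held 60.8 and 70.0 percent G and C, that of the second start of Gcgr 56.0 percent and that of Gnrhr 42.4 percent, against a median of 51.2 percent over 33469 regions of the same length. The GC box had 1 match before Pdgfa, 2 before the first start of Gcgr and 0 before Gnrhr, and 30.5 percent of all regions hold it. The TATA box and the half-site TGACG had 1 match each before Gnrhr and 0 before the others (12.9 and 18.2 percent of all regions). The AP-1 site and the nuclear receptor half-site had 0 matches before any of the 3 genes (6.34 and 14.1 percent of all regions). None of the 3 genes is on chromosome 13, the chromosome exchanged between the strains.

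Pdgfa lay on the negative side in SS rats at 3 days and far on the positive side in SS-13BN/Mcw rats at 3 days. At 3 days its pair values were -0.30, -0.21 and -0.18 in SS rats, against 0.40, 0.17 and 0.76 in SS-13BN/Mcw rats. The groups did not overlap, and the gap between them was 0.36. Of the 6 arrays of each group, 1 was positive in SS and 6 in SS-13BN/Mcw. All 3 pairs were negative in SS and positive in SS-13BN/Mcw, as in 16.5 percent and 22.1 percent of all probes. Overnight the pair values were -0.11, -0.067 and -0.050 in SS rats, against -0.14, -0.082 and 0.076 in SS-13BN/Mcw rats, and these groups overlapped. The means were -0.23 ± 0.062 in SS and 0.44 ± 0.29 in SS-13BN/Mcw at 3 days, and -0.076 ± 0.030 in SS and -0.049 ± 0.11 in SS-13BN/Mcw overnight (SD, n = 3 pairs each).

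Gcgr was on the negative side in every group except SS-13BN/Mcw at 3 days, where it lay near 0. At 3 days its pair values were -0.72, -0.24 and -0.31 in SS rats, against 0.12, -0.036 and 0.17 in SS-13BN/Mcw rats. The gap between these groups was 0.20. Overnight the values were -0.27, -0.35 and -0.69 in SS rats, against -0.40, -0.44 and -0.75 in SS-13BN/Mcw rats, so that all 6 pairs were negative and the strains overlapped. All pairs were negative in 19.7 percent of all probes in SS overnight and in 27.1 percent in SS-13BN/Mcw overnight. The 3-day means were -0.42 ± 0.26 in SS and 0.084 ± 0.11 in SS-13BN/Mcw (SD, n = 3 pairs each). The overnight means were -0.44 ± 0.23 in SS and -0.53 ± 0.19 in SS-13BN/Mcw (SD, n = 3 pairs each). Of the 12 arrays made overnight 0 were positive.

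Gnrhr was positive in SS-13BN/Mcw rats at 3 days and on the negative side or near 0 elsewhere. At 3 days its pair values were -0.52, -0.20 and 0.0079 in SS rats, against 0.63, 0.21 and 0.40 in SS-13BN/Mcw rats, with a gap of 0.21 between the groups. Of 6 arrays each, 1 was positive in SS and 5 in SS-13BN/Mcw. Overnight the values were -0.11, -0.20 and -0.19 in SS rats, against -0.19, -0.10 and 0.022 in SS-13BN/Mcw rats, and these overlapped. The means were -0.24 ± 0.26 in SS and 0.41 ± 0.21 in SS-13BN/Mcw at 3 days, and -0.17 ± 0.045 in SS and -0.090 ± 0.11 in SS-13BN/Mcw overnight (SD, n = 3 pairs each).

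**Figure D1:**
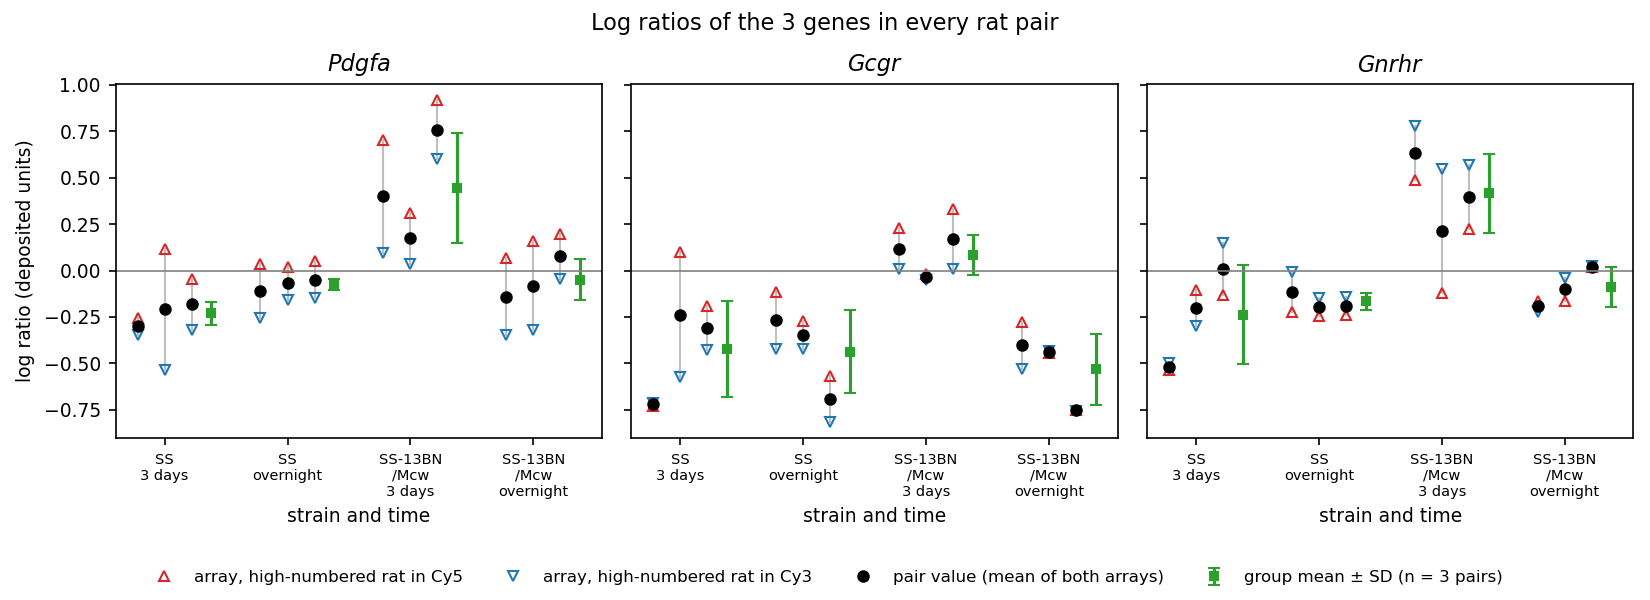
Log ratio in deposited units (vertical axis) of Pdgfa, Gcgr and Gnrhr in the 4 strain and time groups; triangles are single arrays by dye orientation, black points the 3 pair values and green squares the group mean ± SD. The SS-13BN/Mcw pairs at 3 days lie above the pairs of the other groups in all 3 panels.

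With arrays not turned, the order of the 4 group means put SS-13BN/Mcw at 3 days first for all 3 genes. For Pdgfa it was followed by SS-13BN/Mcw overnight, SS overnight and SS at 3 days, and the 2 overnight groups did not differ beyond their spread. For Gcgr the next were SS at 3 days, SS overnight and SS-13BN/Mcw overnight, 3 neighbours within 1 SD of each other. For Gnrhr the next were SS-13BN/Mcw overnight, SS overnight and SS at 3 days, with overlapping pair values. Turned by dye, SS-13BN/Mcw at 3 days was first for Pdgfa (0.20, next to 0.19 in SS-13BN/Mcw overnight), followed both SS groups for Gcgr (0.096, beside 0.15 and 0.12) and was last for Gnrhr (-0.22, against -0.069 to -0.013 in the others).

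Set among all probes of a group, the genes stood near an edge in some groups and in the middle in others. In SS-13BN/Mcw at 3 days 4 of 907 probes had a higher mean than Pdgfa and 6 a higher mean than Gnrhr, while 72 percent of probes lay below Gcgr. In SS at 3 days 1.36 percent of 883 probes lay below Gcgr, 5.55 percent below Gnrhr and 5.89 percent below Pdgfa. Overnight, Gcgr was again low, with 2.19 percent of 1139 probes below it in SS and 5.18 percent of 1100 in SS-13BN/Mcw. Pdgfa overnight was in the body of the distribution, with 28.2 percent of probes below it in SS and 39.9 percent in SS-13BN/Mcw. For Gnrhr overnight these shares were 13.5 percent in SS and 33 percent in SS-13BN/Mcw.

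**Figure D2:**
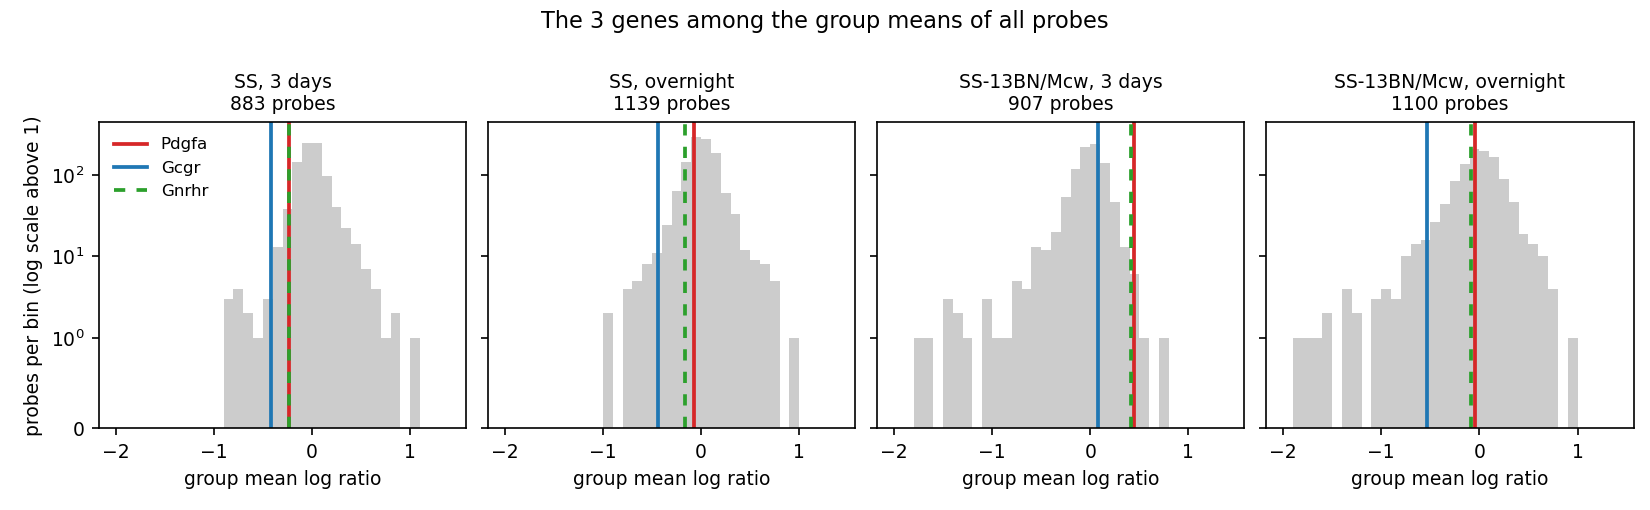
Histograms of the mean log ratio of all probes with at least 2 pair values (horizontal axis, bins of equal width; vertical axis, probes per bin, logarithmic above 1) in each group, with vertical lines at Pdgfa, Gcgr and Gnrhr. In SS-13BN/Mcw at 3 days Pdgfa and Gnrhr stand in the upper tail, and in the other 3 groups Gcgr stands in the lower tail.

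The strain difference at 3 days, which asks where SS departed from its consomic strain later in the salt change, was negative for all 3 genes. SS minus SS-13BN/Mcw was -0.68 ± 0.13 for Pdgfa, -0.65 ± 0.14 for Gnrhr and -0.51 ± 0.15 for Gcgr (fitted value ± SE over 3 pairs a group). Of 824 probes 0 had a lower difference than Pdgfa and 1 had a lower one than Gnrhr. Pair values of the strains did not overlap in 3 of 3 genes. This was so, with SS lower, in 7.4 percent of all probes, and nothing is read from the count because the choice of the genes used this difference. Turned by dye, the 3-day difference was -0.029 ± 0.078 for Pdgfa, 0.19 ± 0.075 for Gnrhr and 0.052 ± 0.083 for Gcgr (SE). The strains then overlapped for Pdgfa and Gcgr, and for Gnrhr SS lay higher without overlap, so the direction and size of this difference depend on the reading of the ratio. With arrays not turned, overnight strain differences were -0.027 ± 0.13 for Pdgfa, -0.076 ± 0.14 for Gnrhr and 0.096 ± 0.15 for Gcgr (SE), each smaller than its error.

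The time difference, 3 days minus overnight, was positive for all 3 genes in SS-13BN/Mcw rats and small in SS rats. In SS-13BN/Mcw it was 0.49 ± 0.13 for Pdgfa, 0.51 ± 0.14 for Gnrhr and 0.62 ± 0.15 for Gcgr (SE), and 13, 10 and 5 of 897 probes had a higher one. In SS it was -0.15 ± 0.13 for Pdgfa, -0.071 ± 0.14 for Gnrhr and 0.014 ± 0.15 for Gcgr (SE). The fit behind these errors takes the groups as independent, although both times of a strain share low-numbered rats. With these rats as a block, 162 of 897 probes in SS-13BN/Mcw were at an unadjusted limma p under 0.05, against 101 without it. Pair values of both times did not overlap in 3 of 3 genes in SS-13BN/Mcw, against 11 percent of all probes with 3 days higher. Nothing is read from this count, since the genes were chosen with this difference known. Turned by dye, the SS-13BN/Mcw differences were 0.012 ± 0.079 for Pdgfa, -0.20 ± 0.075 for Gnrhr and 0.055 ± 0.084 for Gcgr (SE). In SS, with arrays not turned, pair values of both times did not overlap for Pdgfa alone, with 3 days lower, which was so in 4.89 percent of all probes. Time and slide order cannot be told apart in SS.

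**Figure D3:**
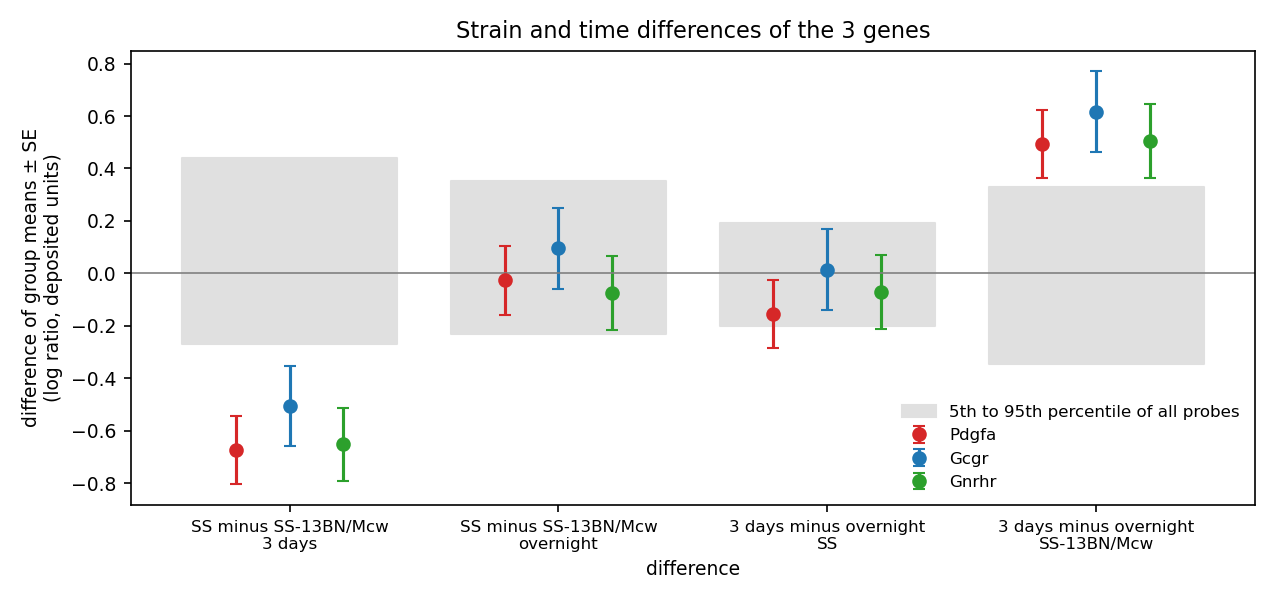
Differences of group means (vertical axis, log ratio in deposited units, ± SE of the fit) of Pdgfa, Gcgr and Gnrhr for 2 strain and 2 time differences; grey boxes span the 5th to the 95th percentile of all probes. The genes leave the box at 3 days between strains and between times in SS-13BN/Mcw, and lie inside it for the other 2 differences.

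The difference between both dye orientations of a pair was not used to choose the genes and could be tested. The array with the higher-numbered rat in Cy5 minus the other array, halved to put it on the scale of 1 array, was 0.17 ± 0.086 for Pdgfa, positive in 12 of 12 pairs (SD, n = 12, exact two-sided sign-flip permutation test, p = 0.000488, adjusted over 3 genes 0.00146). For Gcgr it was 0.10 ± 0.098, positive in 10 of 12 pairs (SD, n = 12, exact permutation p = 0.00342, adjusted 0.00513). For Gnrhr it was -0.080 ± 0.11, positive in 2 of 12 pairs (SD, n = 12, exact permutation p = 0.0229, adjusted 0.0229). This is a dye offset if the ratio sets 1 rat over the other, and the difference between the rats of a pair if the ratio is Cy5 over Cy3. Which of these it is was not tested for the 3 genes. Over all probes, both arrays of every pair correlated positively once the part shared by 1 dye orientation was taken out, as given above. The test takes the 12 pairs as independent, but the pairs of both times in a strain share low-numbered rats. If the ratio is Cy5 over Cy3, the p-values may therefore be too small. Among the 701 probes with all 12 pairs 35.8 percent had 1 sign throughout. Of these probes 88.4 percent had a lower value than Pdgfa, 74 percent a lower one than Gcgr and 36.1 percent a lower one than Gnrhr. Gcgr and Gnrhr thus lay in the body of the distribution. The halved difference was smaller in size than the 3-day strain difference of each gene with arrays not turned.

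With arrays not turned, Pdgfra, the receptor gene for the A chain, lay on the side opposite to its ligand in SS-13BN/Mcw at 3 days. Its mean there was within its error of 0 (-0.17 ± 0.27, SE, limma against 0, adjusted p = 0.794). At 3 days its pair values were 1.27, 0.76 and -0.43 in SS rats, against -0.14, -0.24 and -0.13 in SS-13BN/Mcw rats. Overnight they were 1.01, 0.56 and 0.11 in SS rats, against 0.52, 0.18 and 1.31 in SS-13BN/Mcw rats. All 3 pairs of SS-13BN/Mcw were thus negative at 3 days and all 3 positive overnight, while in SS at 3 days pair 3 lay on the negative side and the other pairs on the positive side. The difference of SS minus SS-13BN/Mcw at 3 days was 0.71 ± 0.39 (SE, limma adjusted p = 0.59). The difference of 3 days minus overnight in SS-13BN/Mcw was -0.85 ± 0.39 (SE, limma adjusted p = 0.431), so neither passed at an adjusted p of 0.05 over all probes tested. Turned by dye they were 0.17 ± 0.14 and -0.021 ± 0.15 (SE), with overlapping groups.

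Some markers of interstitial and collecting duct cells also differed between the groups. Of 9 fibroblast, mesangial and smooth muscle markers 7 had a value and 3 had one in all 12 pairs, Col1a1, Tagln and Vim. Their mean ran from 0.33 to 1.31 in SS at 3 days, against -0.041 to 0.15 in SS-13BN/Mcw at 3 days, and from 0.32 to 1.20 in SS overnight, against 0.28 to 0.84 in SS-13BN/Mcw overnight. Among the markers with values in fewer pairs, Col3a1 averaged 0.52 in SS and -0.086 in SS-13BN/Mcw at 3 days. Acta2 went the other way, with -0.12 in SS and 0.11 in SS-13BN/Mcw (2 pairs each), as did Des, with -0.019 in SS (3 pairs) and 0.073 in SS-13BN/Mcw (2 pairs). Myh11 had values on 2 arrays. Of 6 collecting duct markers 2 had a value, the water channel Aqp3 and the sodium channel subunit Scnn1a. Their mean ran from -0.064 to -0.0067 in SS at 3 days, against 0.058 to 0.39 in SS-13BN/Mcw at 3 days. In SS at 3 days 1 of these 2 markers lay on the negative side. Their part in the values of the 3 genes was not tested. In kidney tissue fewer cells of a type and less RNA per cell cannot be told apart.

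Of 9 markers of the distal tubule and thick ascending limb 6 had a value, and the 5 with one in all pairs averaged -0.32 to -0.076 over the SS pairs at 3 days, against -0.036 to 0.040 in SS-13BN/Mcw. Overnight they averaged -0.22 to -0.16 in SS, against -0.28 to -0.11 in SS-13BN/Mcw. Ppp1r1a, also one of the genes most like Gcgr, is one of these markers. Proximal tubule markers, 8 with a value in all pairs of 15 measured and 23 listed, averaged -1.01 to -0.15 in SS at 3 days, against -1.12 to -0.81 in SS-13BN/Mcw. Of the defining pituitary markers Pomc had a value on 5 of 24 arrays, and the gonadotropin genes Lhb and Fshb had no value here. The liver markers Alb, Apoa1 and Ttr had values on 3, 5 and 2 arrays.

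**Figure D4:**
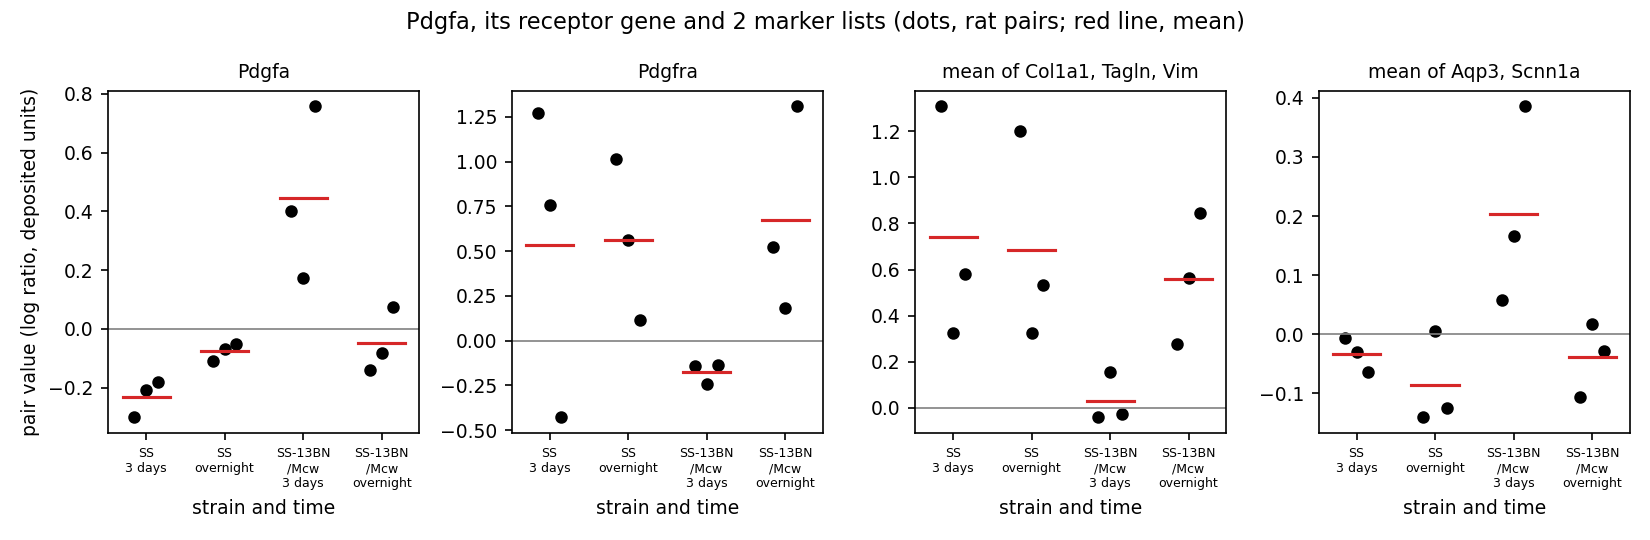
Pair values (vertical axes, log ratio in deposited units, scales differ between panels) of Pdgfa, of its receptor gene Pdgfra, and the mean of the interstitial markers Col1a1, Tagln and Vim and of the collecting duct markers Aqp3 and Scnn1a; dots are rat pairs and red lines group means. In SS-13BN/Mcw at 3 days Pdgfa and the collecting duct mean are high while Pdgfra lies between -0.24 and -0.13.

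Related genes were taken from 5 lists, of the 3 signalling systems and of other growth factors, their receptors and hormone receptors, and 43 of these genes had a value. In SS at 3 days 0 of 20 tested genes passed in limma, where 0.34 percent of all probes did (108 probes at an unadjusted p under 0.05). In SS overnight 1 of 27 passed, where 1.14 percent of all probes did. In SS-13BN/Mcw at 3 days 0 of 22 passed, where 2.98 percent did (151 at an unadjusted p under 0.05), and overnight 1 of 26 passed, where 10.5 percent did. The medians of the tested genes were -0.031 and -0.019 in SS at 3 days and overnight, and 0.026 and -0.021 in SS-13BN/Mcw, beside -0.0054, 0.0071, -0.0030 and -0.0016 over all probes.

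The gene that passed in SS overnight was Akt1, a kinase downstream of the PDGF receptors, with pair values of -0.79 and -0.66 in 2 measured pairs (mean -0.73, limma adjusted p = 0.0369). With values in only 2 pairs, it fell under the minimum for a test when either of these was left out. Igf1, a growth factor gene, passed in SS-13BN/Mcw overnight, with pair values of -0.33, -0.31 and -0.24 (mean ± SD -0.29 ± 0.047, n = 3, limma adjusted p = 0.0419). Without pair 3 of that group 12 probes passed in place of 116, without pair 2 there were 45, and Igf1 passed in no fit that left out a pair. For the strain differences 0 of 18 genes passed at 3 days and 0 of 24 overnight, and for the time differences 0 of 20 in SS and 0 of 22 in SS-13BN/Mcw. In these 4 differences 0 percent of all probes passed in limma, with 69, 53, 17 and 101 probes at an unadjusted p under 0.05. In an array-level fit 1, 2, 0 and 5 related genes passed in SS at 3 days, SS overnight, SS-13BN/Mcw at 3 days and SS-13BN/Mcw overnight, and turned by dye 7, 3, 5 and 4 did, where 344, 325, 299 and 309 probes passed in all. The array-level fit gave 7 probes for the strain difference at 3 days and 9 for the difference between times in SS-13BN/Mcw. In that fit the correlation of arrays within a rat pair was estimated at -0.0624. Both arrays of a pair thus counted almost as separate replicates, and its counts do not take the rat pair as the unit.

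Among the first partners of the 3 genes, Grb2, the adaptor that links PDGF receptors to Ras, stood at 0.21 ± 0.17 in SS at 3 days and -0.099 ± 0.093 in SS overnight (SD, n = 3 pairs). Map2k1, a kinase of the Ras pathway, stood between 0.096 in SS-13BN/Mcw at 3 days and 0.29 in SS-13BN/Mcw overnight. Map2k2, a second kinase of that pathway, lay on the other side, between -0.25 in SS-13BN/Mcw overnight and -0.044 in SS at 3 days. Gnas, the stimulatory G protein through which the glucagon receptor acts, stood at -0.20 ± 0.087 in SS and -0.21 ± 0.024 in SS-13BN/Mcw at 3 days (SD, n = 3 pairs). Overnight it stood at -0.036 in SS and -0.026 in SS-13BN/Mcw. Glp1r, the receptor of a peptide cut from the same precursor as glucagon, stood between -0.0036 and 0.15 in the 4 groups. Itpr1, a calcium channel opened by a messenger that Gq-coupled receptors raise, stood between -0.13 and -0.035. Itpr3, another channel of that kind, stood between 0.040 and 0.26 (2 or 3 pairs a group).

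The genes with the profile most like each of the 3 were named by Pearson r of the pair values over 12 pairs among 597 other probes with 1 gene symbol. The pairs share low-numbered rats between times, and r is a description of values that were not turned by dye. Gnrhr was the probe most like Pdgfa (r = 0.86), followed by Hsd11b2, the enzyme that inactivates glucocorticoid in aldosterone target cells (0.84), Mtarc2, a mitochondrial reductase, and Atp2a2, a calcium pump (0.83 each), and Acsl1, an acyl-CoA synthetase (0.81). Without the 3 pairs of SS-13BN/Mcw at 3 days r was 0.69 for Gnrhr, -0.090 for Hsd11b2, 0.084 for Mtarc2, 0.47 for Atp2a2 and -0.31 for Acsl1 over 9 pairs. For Hsd11b2, Mtarc2 and Acsl1 the likeness to Pdgfa rests on that group. The most opposite were Rab11a, a GTPase of recycling vesicles (-0.83), the lysosomal protease Ctsl (-0.82) and Nid1, a basement membrane protein (-0.82). Over the 9 pairs r was -0.42 for Rab11a, -0.17 for Ctsl and -0.80 for Nid1.

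For Gnrhr the most alike were Cyp2c6v1, a cytochrome P450, and Zfp142, a zinc finger protein (0.88 each), Pdgfa, the kinase Prkcz (0.85) and Nt5e, which makes adenosine outside cells (0.82). Over the 9 pairs outside SS-13BN/Mcw at 3 days r stayed between 0.53 and 0.72 for these 5. Its most opposite were Hsd11b1, which regenerates glucocorticoid (-0.87), Nid1 (-0.87) and Ndufaf3, an assembly factor of respiratory complex I (-0.83), and over the 9 pairs these stood at -0.78, -0.86 and -0.67.

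For Gcgr the most alike were Hsd11b2 (0.84), the phosphatase inhibitor Ppp1r1a (0.82), Ldhb, a lactate dehydrogenase chain (0.82), the sulfur enzyme Mpst and Atp5f1c, a subunit of ATP synthase (0.79 each). Over 9 pairs r ran from 0.51 to 0.77 for these 5. Its most opposite were the 14-3-3 protein gene Ywhah (-0.82), the tubulin Tubb5 (-0.80) and Pawr, a regulator of cell death (-0.78), and over the 9 pairs these stood at -0.58, -0.33 and -0.48. Between the 3 genes themselves r was 0.86 for Pdgfa with Gnrhr, 0.78 for Gcgr with Gnrhr and 0.70 for Pdgfa with Gcgr over 12 pairs. With group means taken out these were 0.40, 0.41 and 0.13. Without SS-13BN/Mcw at 3 days they were 0.69, 0.26 and -0.28 over 9 pairs, so the likeness of Pdgfa and Gcgr rests on that group.

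With arrays not turned, Hsd11b2 shows the shape shared with Pdgfa and Gcgr. At 3 days its pair values were -0.24, -0.27 and 0.044 in SS rats, against 0.26, 0.058 and 0.49 in SS-13BN/Mcw rats. Overnight they were -0.073, -0.012 and -0.28 in SS rats, against -0.13, -0.32 and -0.24 in SS-13BN/Mcw rats. Nid1 shows the reverse. At 3 days its pair values were 0.68, 0.26 and 0.24 in SS rats, against -0.11, -0.19 and -0.22 in SS-13BN/Mcw rats. Turned by dye, SS minus SS-13BN/Mcw at 3 days was -0.026 ± 0.064 for Hsd11b2 and -0.012 ± 0.086 for Nid1 (SE), with overlapping strains. The difference of 3 days minus overnight in SS-13BN/Mcw was then 0.026 ± 0.065 for Hsd11b2 (SE), with overlapping times. Hsd11b1 was at -0.94, -1.20 and -1.15 in SS-13BN/Mcw at 3 days, against 0.085, -0.24 and -0.33 in SS-13BN/Mcw overnight.

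**Figure D5:**
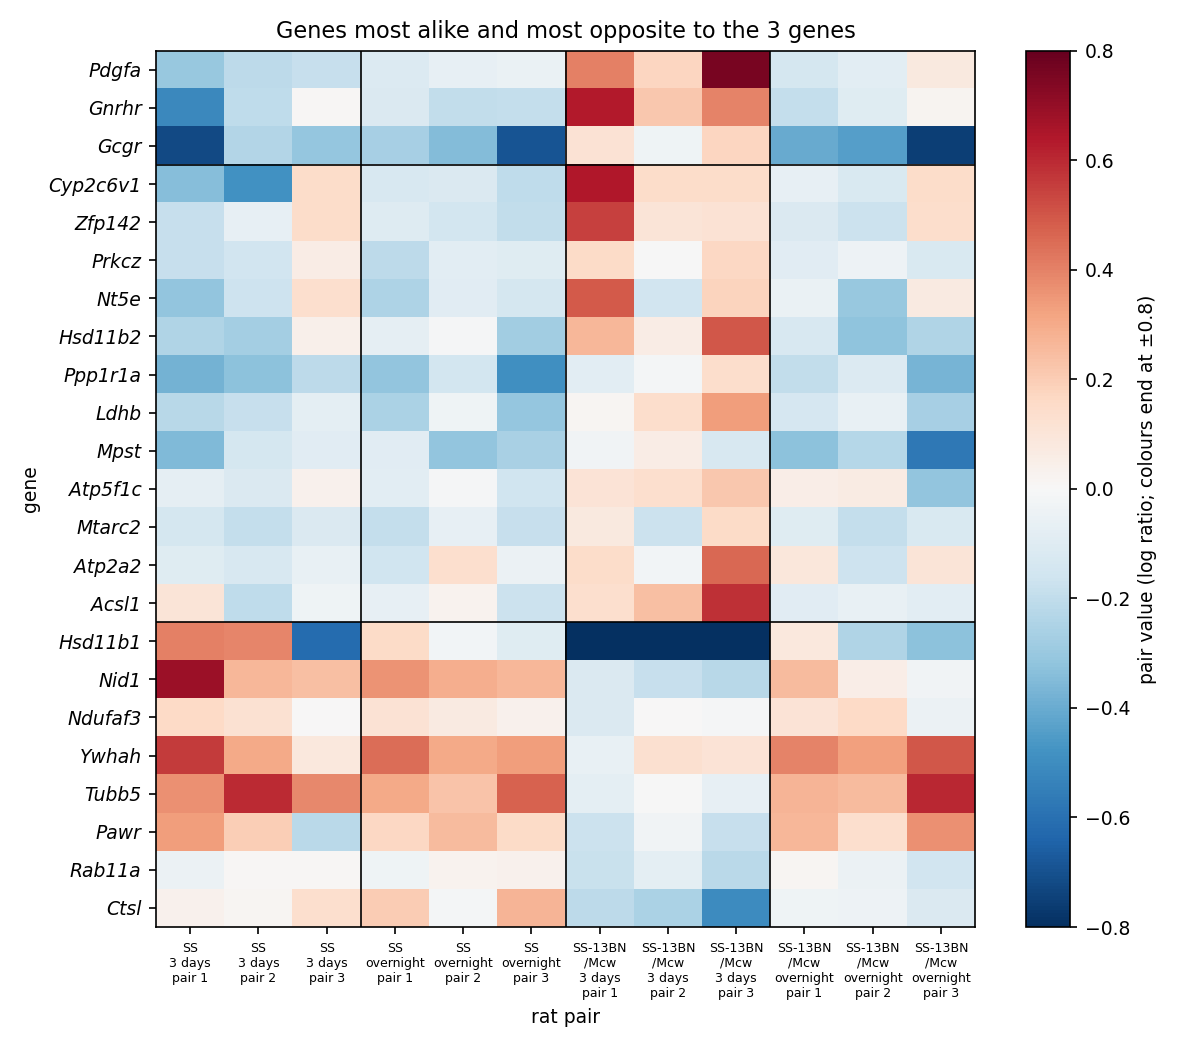
Pair values (colour, log ratio in deposited units, ends of the scale at ±0.8) of Pdgfa, Gnrhr and Gcgr (top block), the genes most alike to any of them (middle) and the most opposite (bottom), by rat pair (columns, 4 groups of 3). The 3 columns of SS-13BN/Mcw at 3 days differ in colour from the other 9 in most rows.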

How the data were processed

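The deposited table holds a score per probe and array, a log ratio of both channels for which the sources used here give no base, numerator or earlier step. Array means lay within 0.000822 of 0 and array medians within 0.0668. Every per-sample column was used, and no array repeated another. Probes were named through the array annotation, with symbols updated by gene number in a RefSeq table of GRCr8 for 1421 of 1426 measured probes with 1 symbol.

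Arrays were centred on the median and averaged over both dye orientations into 12 pair values. limma 3.58.1 in R 4.3.3 fitted a mean for each group to the pair values, with eBayes moderation, two-sided tests and Benjamini-Hochberg adjustment at 0.05. Residual degrees of freedom were 8 for a probe with all 12 pair values and fewer for the others. A probe was tested with at least 2 pairs in each group compared. The fit was tested on simulated data. Alternatives changed the centring, scaling, sign of swapped arrays, unit of the fit, block and filter, and left out each pair. Rats 1 to 3 appear at both times by title, so numbers pair the groups of a strain. Deviations from the group mean of pairs with the same rat correlated with r from -0.0241 to 0.62. Random blocks used statmod 1.5.0.

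Beside the 3 genes, the text names their 5 most alike and 3 most opposite probes by r. It also names some of the listed ligands, receptors and partners, and the genes that passed. The genes, lists and rules were chosen with earlier results of these data known. Figures used matplotlib 3.10.9 in Python 3.11.15. The p-values rest on the spread between pairs of rats. Correlations without the pairs of SS-13BN/Mcw at 3 days were added after seeing the data.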

Additional observations from a re-analysis of the deposited data

Results flagged for a closer look

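With arrays not turned by dye, in some genes named above every pair of 1 group lay on one side of the ratio and every pair of the other group on the opposite side, and these differences were not tested for their opposite sides. For the strain difference at 3 days, SS minus SS-13BN/Mcw, they were Pdgfa at -0.675 (means -0.23 in SS and 0.44 in SS-13BN/Mcw), Ldhb at -0.325, Nid1 at 0.57, Ctsl at 0.383 and Tubb5 at 0.497. For 3 days minus overnight in SS-13BN/Mcw they were Pdgfra at -0.846 (means -0.17 at 3 days and 0.67 overnight), Tubb5 at -0.425, Pawr at -0.384, Ldhb at 0.316, Acsl1 at 0.396 and Hsd11b2 at 0.501. For 3 days minus overnight in SS it was Grb2 at 0.308 (means 0.21 at 3 days and -0.099 overnight). Pdgfa was chosen by its measured values, and the other genes except Pdgfra and Grb2 were named by their r with the 3 genes. Their opposite sides follow in part from that choice, and nothing is read from them. The share of all probes with this pattern is not given here. Tubb5 is included with a pair at -0.00047 in SS-13BN/Mcw at 3 days. Groups of 3 pairs are too small for a test of single outlying pairs.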

How the results depend on the processing

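The group means of the 3 genes stayed on their side of 0 with values as deposited, arrays scaled to one spread, quantile normalization and each pair left out, in all 12 gene and group means. With arrays turned by dye, which takes the ratio as Cy5 over Cy3, 7 of the 12 means changed side, and the strain and time differences changed as given above. Pdgfa then stood at 0.17 and 0.11 in SS at 3 days and overnight and at 0.19 in SS-13BN/Mcw overnight, Gcgr at 0.15 and 0.12 in SS and at 0.041 in SS-13BN/Mcw overnight, and Gnrhr at -0.22 in SS-13BN/Mcw at 3 days. Leaving out 1 pair moved these means by over 1.5 times. In SS at 3 days Gnrhr stood at -0.097 without pair 1 and -0.36 without pair 3, and Gcgr at -0.27 without pair 1. In SS-13BN/Mcw at 3 days Pdgfa stood at 0.29 without pair 3, and Gcgr at 0.14 without pair 2 and 0.041 without pair 3. In SS-13BN/Mcw overnight Gnrhr stood at -0.039 without pair 1 and -0.15 without pair 3, and Pdgfa at -0.0030, -0.032 and -0.11 without pair 1, 2 or 3.

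Counts of probes past the threshold are given for SS at 3 days, SS overnight, SS-13BN/Mcw at 3 days and SS-13BN/Mcw overnight in that order, 3, 13, 27 and 116 as reported. Turned by dye they were 344, 325, 299 and 309, while an array-level fit gave 43, 75, 58 and 228. That fit took both arrays of a pair almost as separate replicates. With arrays scaled to one spread the first 3 were 9 (7 positive), 51 (30 positive, against 11 of 13 as reported) and 61, and after quantile normalization 16 (9 positive), 65 (31 positive) and 64. With the replicate block of the low-numbered rat 5 passed in SS at 3 days, and with all 3 pairs required 1 did, where 767 probes were tested in place of 883. The replicate block moved no other count by over 1.5 times. The strain difference at 3 days had 7 probes with scaled arrays, 5 after quantile normalization and 7 in the array-level fit, and the time difference in SS-13BN/Mcw had 9 in the array-level fit, against 0 each. Leaving out 1 pair gave 0 to 10, 0 to 6, 0 to 29 and 12 to 92 probes for the 4 groups, 0 to 1 for the strain difference at 3 days and 0 for the other 3 differences. The zeros came without pair 1 or 2 in SS at 3 days, pair 1 or 3 in SS overnight and pair 2 or 3 in SS-13BN/Mcw at 3 days. The cause of these shifts was not tested. The table gives no signal over background, so its limit is unknown.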
